A study of Homo sapiens with 12 samples.

Results

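The transcriptomes of the human glioblastoma cell lines U87MG and U251MG were compared in their parental state, before temozolomide selection. The comparison used 3 libraries of U87MG and 3 of U251MG. It covered every gene with at least 1 FPKM (fragments mapped to a gene, scaled to its transcript length and to the size of the library) in at least 3 of these 6 libraries, which is 14211 of the 31654 genes with a usable symbol. Both lines were grown in DMEM with serum, the labels name no drug for them, and every library was made from total RNA. U87TR and U251TR, with 3 libraries each, are lines derived from these parents by repeated exposure to rising temozolomide. They were used here to see the same contrast in other libraries, and they also enter the estimate of each gene's spread. Whether the 3 libraries of each line are separate cultures is not given in the labels, so p-values measure the spread between these libraries, which may be technical. Whether a line was cloned is not given either.

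Glioblastoma is the most aggressive glioma of adults, and its expression states are usually ordered between a proneural, stem-like state led by transcription factors such as SOX2 and a mesenchymal state with matrix, hypoxia and inflammatory genes. Temozolomide is the alkylating drug given with radiotherapy. U87MG and U251MG are among the most used models of the disease. As background, the widely distributed U87MG stock is known not to match the tumour it was said to come from.

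Summed FPKM ranged from 739973 to 785754 in the 6 parental libraries, and 12857 to 13105 of the genes tested were at 1 FPKM or more in each. FPKM values carry no read counts, so the depth of a library is unknown and no counting interval can be given. Across genes, Spearman's correlation between libraries of different parents was 0.7577 to 0.7716, against 0.9745 to 0.9941 within a line. U251MG replicate 2 was the library least like its line (0.9745 and 0.9753, against 0.9941 between replicates 1 and 3). U87MG replicate 3 stood apart less (0.983 and 0.9871, against 0.9934). For many results that moved without either library the value without it is given below, but not for all.

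The lines differed in most of the genes tested (the plot of mean levels). Differences are U87MG minus U251MG on the log2(FPKM + 1) scale with their standard error (SE), from limma with Benjamini-Hochberg adjustment over the 14211 genes, and a gene was called at an adjusted p under 0.05. A total of 10547 genes (74.2%) were called, 4720 of them (33.2%) higher in U87MG and 5827 (41%) higher in U251MG. Differences that were called and reached at least 2-fold, here named 2-fold differences, numbered 4765 (33.5%), with 2178 (15.3%) higher in U87MG and 2587 (18.2%) higher in U251MG. The median difference over all genes was -0.10. A call is therefore the usual outcome for a gene here, and each gene group below is described by its 2-fold differences and its median beside these values.

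**Figure D1:**
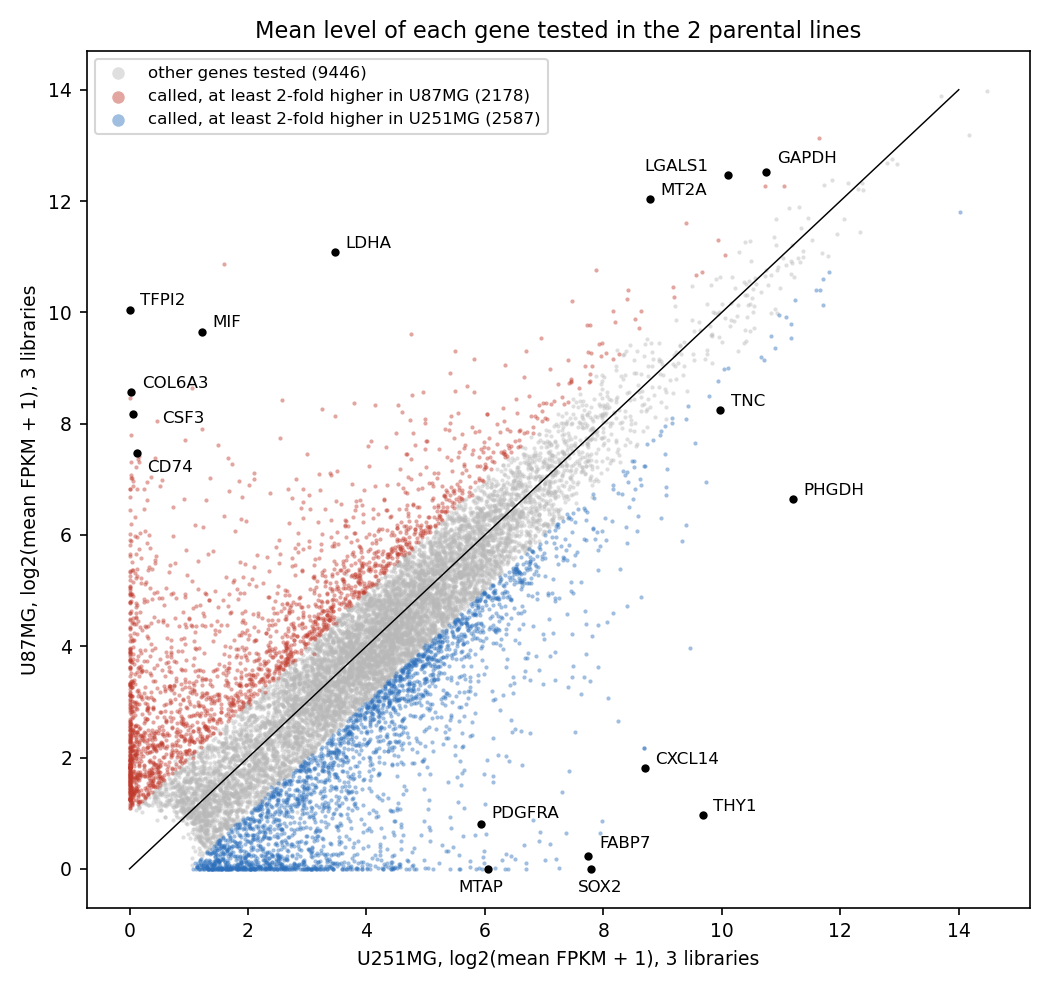
Mean level of each of the 14211 genes tested, as log2(mean FPKM + 1), in U251MG (x axis) and U87MG (y axis), 3 libraries each. Red points are the 2178 genes with a 2-fold difference towards U87MG, blue points the 2587 towards U251MG, and grey points all others. TFPI2 lies on the y axis and SOX2 and MTAP on the x axis, since the other line lists them at 0.

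The largest differences towards U87MG among genes with a plain symbol were those of TFPI2, COL6A3, MIF and CSF3. TFPI2, a secreted inhibitor of serine proteases, was at 909, 1206 and 1063 FPKM in the 3 U87MG libraries and listed at 0 in all 3 of U251MG. COL6A3, a chain of type VI collagen, was at 326, 347 and 460 FPKM against 0.02, 0.03 and 0.01 (difference 8.52, SE 0.13). MIF, a cytokine of macrophages and tumour cells, was at 661, 732 and 1023 FPKM in U87MG and at 1.63, 1.04 and 1.33 in U251MG (difference 8.41, SE 0.16). LDHA, the lactate dehydrogenase subunit that turns pyruvate into lactate, was at 1563, 1874 and 3073 FPKM against 7.67, 13.6 and 8.99 (difference 7.59, SE 0.22). These genes were chosen with no overlap between the libraries of the lines as a condition. LDHA and MIF were highest in U87MG replicate 3. Such low values of MIF and LDHA in U251MG were not checked in the alignments, since reads were not used here. LDHB, the other common subunit and named after its values were seen, was at 389 to 513 FPKM in U251MG and 446 to 570 in U87MG, with a difference of 0.28 that was not called (adjusted p 0.0508, limma).

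The 15 largest differences in each direction were taken among plain gene symbols, without pseudogenes and small RNAs. This left out RN7SL3, a small cytoplasmic RNA (9.37), and the pseudogene MT1L (8.46), which would rank among the first 4 towards U87MG, and the pseudogenes RPL9P8 and RPL9P9 (both -6.50) towards U251MG. The remaining members of the group of U87MG lay between 7.02 and 8.11. They included CSF3, the granulocyte growth factor (287 ± 43.5 FPKM against 0.0367 ± 0.0404, mean ± SD, n = 3). CYBA and RAC2, subunits of the phagocyte NADPH oxidase, were at 222 ± 24.4 and 397 ± 26.4 FPKM, against 0.0167 ± 0.0289 and 1.07 ± 0.38 in U251MG. CAPG, an actin-capping protein, TGM2, a transglutaminase that cross-links proteins, FLNC, a filamin, and MMP3, a matrix metalloproteinase, were at most at 0.59 FPKM in any U251MG library. In U87MG their lowest libraries were at 256, 134, 138 and 118 FPKM. CD74, SIGLEC15, SLC43A3 and PRKCDBP complete the group of 15.

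Towards U251MG the largest differences were those of THY1, SOX2 and FABP7. THY1, a surface glycoprotein of neurons and stromal cells, was at 677, 1120 and 659 FPKM in U251MG and at 1.15, 1.46 and 0.27 in U87MG (difference -8.72, SE 0.23). SOX2, the transcription factor that maintains neural stem cells, was at 214, 242 and 204 FPKM and listed at 0 in all 3 libraries of U87MG. SOX2-OT, the transcript that spans SOX2 and is also listed in this group, was at 119, 187 and 130 FPKM against 0.01, 0.18 and 0.2. How reads were divided between overlapping genes such as this pair was not checked.

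FABP7, the brain fatty acid binding protein of radial glia, was at 193, 253 and 197 FPKM against 0.2, 0.22 and 0.09 (difference -7.51, SE 0.12). GPM6A and GPM6B, neural membrane glycoproteins, differed by -7.31 (SE 0.14) and -6.86 (SE 0.11). LPL, a lipase, was at 188, 82.9 and 182 FPKM against 0, 0.01 and 0.01, with U251MG replicate 2 the lowest of its line. CXCL14, a chemokine, was at 310, 585 and 350 FPKM against 2.47, 2.41 and 2.67, and IGFBP5, which binds insulin-like growth factors, at 91.7, 304 and 94.7 against 0.41, 0.51 and 0.78. In both of these genes U251MG replicate 2 was the highest library. SERPINF1, GPC4, PDLIM4, AUTS2, IL18 and PLEKHG1 make up the rest, with differences between -7.16 and -6.34.

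**Figure D2:**
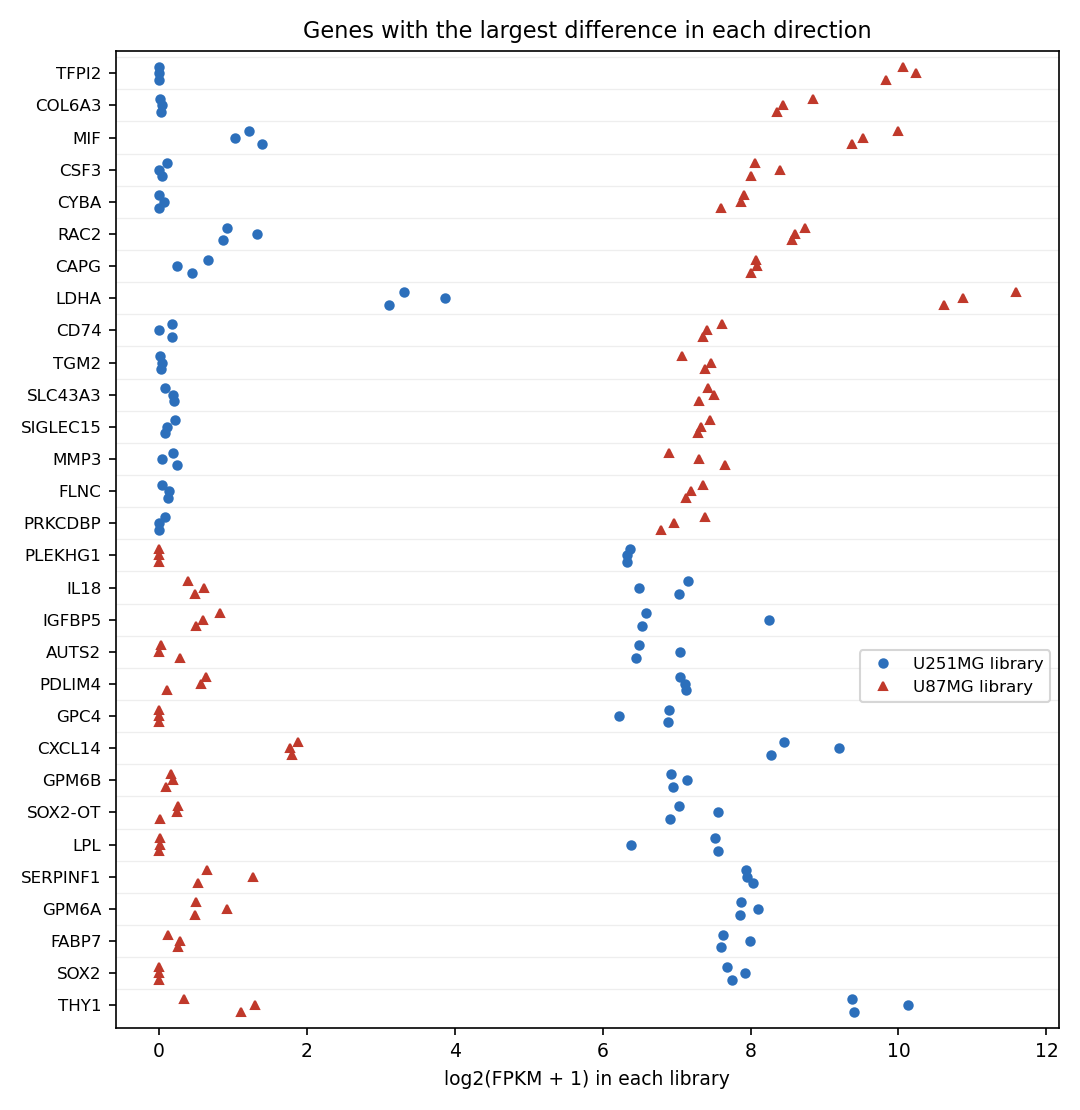
Level in each parental library, as log2(FPKM + 1), of the 15 plain gene symbols (no pseudogenes or small RNAs) with the largest difference in each direction, ordered from THY1 (-8.72) to TFPI2 (10.04). Blue circles are the 3 U251MG libraries and red triangles the 3 U87MG libraries. No gene's libraries overlap between the lines.

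Some genes were listed as present in one line and as absent from the other. A total of 81 genes were at 10 FPKM or more in every U87MG library and under 0.1 in every U251MG library, and 55 showed the opposite pattern. Besides TFPI2, COL6A3, CSF3, CYBA and TGM2, the most abundant genes of U87MG in this class were MT1L, PRKCDBP, MLPH, a carrier of pigment granules (130 ± 2.66 FPKM, n = 3), and PLTP, a phospholipid transfer protein (129 ± 30.7 FPKM). The corresponding genes of U251MG were SOX2, LPL, GPC4, PLEKHG1, the transcription factors SOX21, IRX1 and TOX3, MTAP, ARHGEF4 and C6orf15. Of the 81 genes, 35 kept the whole pattern in U87TR and U251TR, 1 was under 0.1 FPKM in U87TR, and 3 were at 1 FPKM or more in every U251TR library. Of the 55 genes, 21 kept it, 1 was under 0.1 FPKM in U251TR, and 0 were at 1 FPKM or more in U87TR.

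The median promoter of these genes held fewer CpG dinucleotides than that of the genes tested as a whole. In the RefSeq window from 250 bases before to 50 bases after the start (GRCh38.p14), the median CpG number was 20 for the 48 genes of U87MG with a promoter in the table and 19 for the 39 of U251MG, against 26 for the 10359 genes tested with a promoter and 27 for those not called. Promoters with 5 CpG or fewer made up 27.1% and 15.4% of these classes, against 6.49% of the genes tested. The lower and upper quartiles were 4 and 27 for the genes of U87MG and 7 and 35.5 for those of U251MG. For the genes tested they were 18 and 34, so the class of U251MG was wider and not lower throughout. Among genes with a 2-fold difference the median was 23 towards U87MG and 26 towards U251MG. CpG-poor promoters are a known feature of tissue-restricted genes. These counts are a description of groups that were chosen by expression.

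Glioma driver genes were read in every library (the plot of driver genes). Of 21 driver genes tested, 4 were called higher in U87MG and 11 higher in U251MG, 1 and 7 of them with a 2-fold difference, and the median was -0.73. The median was -0.46 without U251MG replicate 2 and -0.47 without U87MG replicate 2, and the 1 became 2 without U251MG replicate 1. MTAP, an enzyme of methionine salvage whose gene is often lost in glioblastoma, was at 66.3, 62.8 and 67 FPKM in U251MG and listed at 0 in each U87MG library. KLHL9, another gene of chromosome 9, named after its values were seen, showed the same pattern (23.2, 28.1 and 22.4 FPKM against 0 in all 3). PDGFRA, the receptor that marks proneural tumours, was at 41.9, 94.9 and 43.1 FPKM in U251MG and at 0.69, 0.69 and 0.88 in U87MG (difference -5.01, SE 0.29).

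CDK6, a kinase that starts the cell cycle, was at 47.8, 23.1 and 42.5 FPKM against 6.45, 7.3 and 6.86 (difference -2.24, SE 0.22). ATRX, a chromatin remodeller mutated in lower-grade glioma, differed by -1.58 (SE 0.23), MDM4, a relative of MDM2, by -1.23 (SE 0.12), and RB1, the retinoblastoma tumour suppressor, by -1.03 (SE 0.11). PIK3CA (-0.92), BRAF (-0.80) and H3F3A (-0.73) were also called towards U251MG. TERT, the catalytic subunit of telomerase, was low in all 6 libraries, at 2.75, 3.93 and 2.39 FPKM against 1.87, 0.6 and 1.88. Its call (-0.75, adjusted p 0.0235, limma) was lost without U251MG replicate 2 (-0.59, adjusted p 0.084) and without U87MG replicate 2 (-0.47, adjusted p 0.118), and with no filter on low genes (-0.75, adjusted p 0.0505).

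IDH1, a metabolic enzyme, was the driver gene with the largest difference towards U87MG, at 53.4, 53.1 and 56.7 FPKM against 24, 31.8 and 22.2 (1.05, SE 0.11). MET, the receptor of hepatocyte growth factor, differed by 0.97 (SE 0.19). MDM2, a ubiquitin ligase, differed by 0.38 (SE 0.12). EGFR, the receptor most often amplified in glioblastoma, overlapped between the lines at 37.2, 26 and 34.9 FPKM in U251MG and 34.1, 36.6 and 40.4 in U87MG, with a difference of 0.19 (SE 0.14) that was not called. NF1, CDK4, IDH2, DAXX and PIK3R1 were not called either, with differences from -0.42 to 0.25. Calls appeared for DAXX (0.43) and IDH2 (0.44) without U251MG replicate 2, for CDK4 (0.33) without U87MG replicate 3 and for PIK3R1 (-0.56) without U251MG replicate 3. DAXX was also called under median-of-ratios scaling (0.34, adjusted p 0.0429, limma), and PIK3R1 with the replicate number as a block (-0.42, adjusted p 0.0135, limma).

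**Figure D3:**
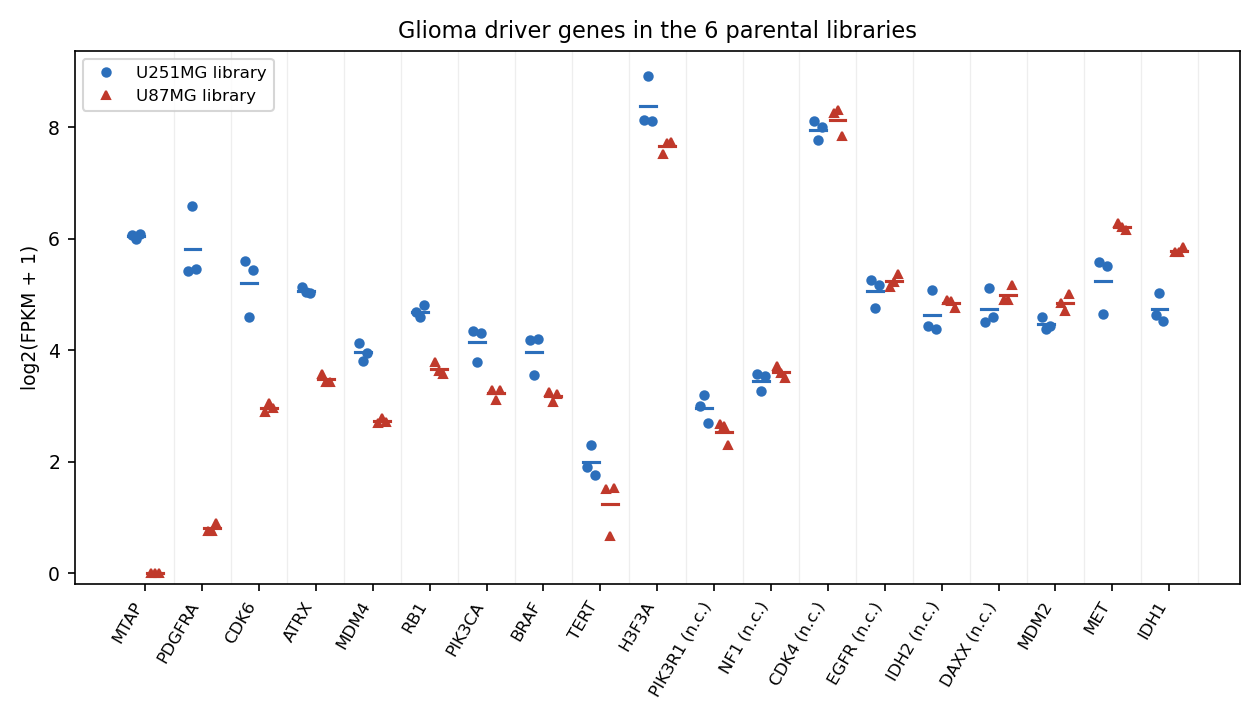
Level of 19 driver genes in each parental library, as log2(FPKM + 1), ordered by their difference from MTAP to IDH1. Blue circles are U251MG libraries, red triangles U87MG libraries, and short bars the means of 3 libraries on this scale. Genes marked n.c. were not called. MTAP is at 0 in U87MG, while EGFR overlaps between the lines.

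Proneural and neural stem cell genes were lower in U87MG. Of 22 such genes with a value, 15 were tested, and 13 of them had a 2-fold difference towards U251MG and 0 towards U87MG (median -3.03). NES, the intermediate filament of neural progenitors, was at 178, 230 and 179 FPKM in U251MG and at 6.63, 7.95 and 8.8 in U87MG (difference -4.48, SE 0.12). POU3F2, a neurodevelopmental transcription factor, differed by -6.03 (SE 0.18) and SOX4, another SOX factor of progenitors, by -4.47 (SE 0.14). MSI1, an RNA-binding protein of stem cells, was at 7.23, 8.4 and 6.67 FPKM and listed at 0 in U87MG. PROM1 and NCAN, also of this list, were near 0 in both lines, at no more than 0.11 and 0.01 FPKM.

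Mesenchymal glioblastoma genes pointed the other way. All 28 were tested, and 17 had a 2-fold difference towards U87MG and 3 towards U251MG (median 1.32). CHI3L1, a secreted glycoprotein used as a mesenchymal marker, was at 69.3, 86 and 85.5 FPKM against 2.07, 2.34 and 1.63 (4.75, SE 0.13). LOX, which cross-links collagen, differed by 4.70 (SE 0.34), and ITGA5, the fibronectin receptor chain, by 3.63 (SE 0.15). LGALS1, a galectin, reached 4831, 5587 and 6530 FPKM in U87MG against 1049, 1223 and 1015. TNC, the matrix protein tenascin C, went against the list at 1007, 980 and 1020 FPKM in U251MG and 265, 281 and 361 in U87MG (-1.74, SE 0.10). STAT3 (-1.46) and S100A4 (-3.25), named after their values were seen, also went against it.

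Genes of the classical glioblastoma state had 2 members with a 2-fold difference towards U87MG and 7 towards U251MG among 12 tested (median -1.78). FGFR3, a receptor of fibroblast growth factors, was at 13.9, 23 and 15.2 FPKM in U251MG and at most at 0.01 in U87MG, and SMO, the transducer of Hedgehog signals, at 9.71, 17.6 and 9.38 against 0.06, 0.01 and 0.02. SOCS2, an inhibitor of cytokine signalling, differed by -4.33 (SE 0.14). Of 10 astrocyte markers tested, 7 had a 2-fold difference towards U251MG and 2 towards U87MG (median -2.36). The 2 were ALDOC, which is also in the glycolysis list below (4.90), and CLU, a secreted chaperone (1.84, SE 0.09), which was at 1056, 1218 and 1338 FPKM in U87MG. The summed level of the whole list was 1205 to 1578 FPKM in U87MG against 977 to 1339 in U251MG, and CLU made up most of it in U87MG. GFAP, the astrocyte filament, was at 20.3, 29.9 and 18.3 FPKM in U251MG and at 0.51, 0.34 and 1.41 in U87MG, and S100B at 9.64, 11.2 and 8.72 against 0 in all 3. SLC1A3, a glutamate transporter, differed by -3.25 (SE 0.13). AQP4 and HEPACAM, which define mature astrocytes, were listed at 0 in all 6 libraries.

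Defining markers of other cell types were mostly near 0. Among microglia and leukocyte markers 2 of 10 were tested, CD68 and CSF1R, and their difference is in the sum of the list, 202 to 222 FPKM in U87MG against 2.59 to 3.59 in U251MG. CD68, a lysosomal protein, accounts for nearly all of it at 190, 192 and 205 FPKM in U87MG. PTPRC, the marker of all leukocytes, was at most at 0.08 FPKM and CD3E at 0 in all 6 libraries. Oligodendrocyte markers summed to 46 to 85.6 FPKM in U251MG and 54.8 to 58.3 in U87MG, and MAG was at 0 throughout. Endothelial markers summed to 11.5 to 12.7 FPKM in U251MG and 33.4 to 35.7 in U87MG, the latter mostly ENG, a co-receptor of TGF-beta (31 to 33.2 FPKM), while CLDN5 was at most at 0.2. Neuron markers summed to 85.8 to 93.4 FPKM in U251MG and 186 to 325 in U87MG. ENO2, which also belongs to the glycolysis list below, made up most of the latter at 120, 149 and 253 FPKM, and RBFOX3, which defines neurons, was at most at 0.21. SYT1, a synaptic protein, was at 12.3, 2.44 and 13.4 FPKM in U251MG against 2.55, 2.1 and 2.22 (-1.41, and -2.07 without U251MG replicate 2). Neuron markers with a 2-fold difference towards U87MG were 2, and 4 without that library. Of 6 neural crest and melanocyte markers tested, 2 and 1 had 2-fold differences towards U87MG and U251MG (median -0.67).

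Fibroblast and pericyte markers divided between the lines. Of 16 tested, 9 had a 2-fold difference towards U87MG and 5 towards U251MG (median 1.66). The summed level of the whole list ran the other way, at 956 to 1541 FPKM in U251MG against 440 to 599 in U87MG. THY1 made up most of it in U251MG. COL1A1 and COL1A2, the chains of type I collagen, were at 87.5, 102 and 182 FPKM and at 86.4, 98.8 and 151 in U87MG, against no more than 4.65 and 0.27 in U251MG. MYL9, a myosin light chain of contractile cells, was at 118, 122 and 98.5 FPKM in U87MG and listed at 0 in U251MG. POSTN, a matrix protein of stroma, was at 17.5, 16.2 and 16.7 FPKM in U251MG and at most at 0.07 in U87MG, and THY1 was noted above. COL3A1, which defines fibroblasts, was at most at 0.09 in any library. All 8 epithelial markers tested had a 2-fold difference towards U251MG (median -1.65). The count was 7 without U251MG replicate 2, U87MG replicate 1 or U87MG replicate 2, and 3 with a pseudocount of 5. KRT18, a simple keratin, was at 71.2, 54.3 and 65.9 FPKM against 0.48, 0.62 and 0.54 (-5.38, SE 0.11), whereas CDH1, the epithelial cadherin, was at most at 0.08 in both lines.

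Notch signalling genes were lower in U87MG at the level of receptor, ligand and target. Notch receptors are cleaved when a neighbouring cell presents a ligand, and the freed fragment joins the DNA-binding protein RBPJ to switch on HES and HEY repressors, a circuit known for keeping neural progenitors undifferentiated. Of 17 genes tested, 13 had a 2-fold difference towards U251MG and 1 towards U87MG (median -1.83). NOTCH2, the most abundant receptor, was at 246, 222 and 240 FPKM in U251MG and at 64, 63.9 and 69.5 in U87MG (-1.83, SE 0.09). DLL1, a ligand, was at 5.05, 4.75 and 5.08 FPKM against 0.04, 0.05 and 0.11. NOTCH3, named after its values were seen, was the member that went the other way (1.66, SE 0.17).

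The targets differed most. HES4 was at 56.2, 34.3 and 48.3 FPKM in U251MG and at 0.32, 0.04 and 0.21 in U87MG (-5.29, SE 0.16), and HES1 at 44.1, 38.2 and 43.2 against 0.64, 0.58 and 0.76 (-4.69, SE 0.10). NRARP, a target that dampens the pathway, was at 31.6, 30.2 and 29.9 FPKM against 0.03, 0 and 0 (-4.97, SE 0.10), HEY1 differed by -3.90 (SE 0.14) and HES7 by -2.72 (SE 0.14). The bases upstream of both HES genes are shown because HES1 is a textbook target with RBPJ sites near its start. They are the 250 bases before the start (RefSeq, GRCh38.p14), 5′ to 3′ in the direction of transcription, with the RBPJ-type heptamer GTGGGAA in capitals.
HES1 (chr3:194135898-194136147, plus strand): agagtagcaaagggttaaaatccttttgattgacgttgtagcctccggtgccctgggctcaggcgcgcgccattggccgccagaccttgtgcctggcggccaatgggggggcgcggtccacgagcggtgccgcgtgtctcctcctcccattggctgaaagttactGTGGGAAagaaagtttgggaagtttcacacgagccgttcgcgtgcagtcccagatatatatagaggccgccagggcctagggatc
HES4 (chr1:1000098-1000347, minus strand): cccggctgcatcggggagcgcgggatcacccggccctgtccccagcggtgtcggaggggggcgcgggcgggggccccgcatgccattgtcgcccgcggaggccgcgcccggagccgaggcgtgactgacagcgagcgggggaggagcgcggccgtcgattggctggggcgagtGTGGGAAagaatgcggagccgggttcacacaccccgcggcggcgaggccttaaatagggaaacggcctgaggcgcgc
The heptamer ended 79 bases before the start of HES1 and 71 bases before that of HES4, on the strand of the gene in both. Counting both strands, with TTCCCAC as its complement, it was found in 3 of the 14 Notch genes with a promoter in the table (HES1, HES4 and HEY2). It was found in 5% of the promoters of genes tested and in 5.46% of the 27305 promoters of the table. All of these were read over the 250 bases before the start only. A match of letters is a description and does not show binding. The motifs printed here and below were chosen after the expression values were seen.

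Developmental regulators split between the lines in patterns of single genes. Of 52 developmental transcription factors tested, 16 had a 2-fold difference towards U87MG and 22 towards U251MG (median -0.17). Without U251MG replicate 2 these counts were 17 and 18. SOX21 was at 57.7, 93.3 and 60.9 FPKM in U251MG and at most at 0.01 in U87MG, IRX1 at 67.2, 64.8 and 62.3 against 0, and PAX7 at 7.5, 11.6 and 6.71 against 0. FOXD1 was at 21.6, 38.7 and 30 FPKM in U87MG and listed at 0 in U251MG, and FOXC2 at 13.5, 15.6 and 19.5 against no more than 0.08. SNAI2, a factor of the neural crest and of epithelial-mesenchymal transition, differed by 3.34 (SE 0.14) towards U87MG.

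HOX genes encode position along the body axis and are known to be switched on in glioblastoma. Of 24 tested, 4 had a 2-fold difference towards U87MG and 12 towards U251MG (median -1). Within the HOXB cluster HOXB9 was at 77.3, 31.1 and 78.2 FPKM in U251MG against 0.01, 0.03 and 0.18, and HOXB3 at 207, 133 and 197 against 11.4, 12.1 and 11. HOXB2 ran against its neighbours at 26.9, 28.7 and 27.4 FPKM in U87MG and 0.17, 0.21 and 0.5 in U251MG (4.48, SE 0.12). Cancer-testis genes, normally silent outside the germ line, also split. MAGEA1 was at 13.8, 11.9 and 11.8 FPKM in U87MG and 0 in U251MG, whereas MAGEA12 was at 22.2, 20.3 and 21.4 in U251MG and at most at 0.04 in U87MG. MAGEA6, which is nearly identical to other family members, is uncertain. Among imprinted genes CDKN1C, a brake on the cell cycle, was at 9.66, 10.4 and 8.25 FPKM against at most 0.04 in U87MG, and NDN was listed at 0 in U251MG and at 4.51, 4.29 and 6.05 in U87MG. The median of the 15 imprinted genes was -0.02 and turned to 0.01, 0.06 and 0.07 under other scalings. It lay between -0.07 (without U251MG replicate 1) and 0.03 (without U87MG replicate 3) with a library left out. Their 2-fold differences numbered 2 towards U87MG and 1 towards U251MG, and the latter became 3 without U251MG replicate 2 or without U87MG replicate 3.

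Proteases of the matrix and their inhibitors were higher in U87MG. Of 43 tested, 29 had a 2-fold difference towards U87MG and 6 towards U251MG (median 2.11). MMP3 was at 200, 158 and 118 FPKM in U87MG and at most at 0.19 in U251MG. MMP2, a gelatinase, was at 890, 854 and 863 FPKM against 207, 237 and 209 (1.99, SE 0.08). CTSK, a collagen-cleaving cathepsin, was at 105, 98.6 and 90.6 FPKM against 1.33, 1.9 and 1.08 (5.36, SE 0.12), and ADAMTS1, which cleaves proteoglycans, differed by 4.68 (SE 0.21). SERPINB2, an inhibitor of plasminogen activators, was at 68, 57.4 and 22.4 FPKM in U87MG, lowest in replicate 3, and listed at 0 in U251MG.

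Structural matrix genes differed in kind more than in number. Collagens had 9 2-fold differences in each direction among 23 tested (median 0.10, and 0 without U251MG replicate 2, 0.03 without U87MG replicate 1 and 0.02 without U87MG replicate 3). COL1A1, COL1A2, COL6A3 and COL16A1 were higher in U87MG, by 4.78 to 8.52. COL4A1 of basement membranes was at 31.4, 18.1 and 30.4 FPKM in U251MG and 0.02, 0.02 and 0.12 in U87MG, and COL18A1, the source of endostatin, at 67.3, 57.3 and 60.2 against 0.11, 0.15 and 0.21. COL6A1 was the most abundant collagen of U251MG, at 475, 569 and 457 FPKM against 170, 204 and 323, although COL6A3, its partner chain, was near 0 there.

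Matrix glycoproteins and proteoglycans had 21 2-fold differences towards U87MG and 10 towards U251MG among 39 tested (median 1.15). FN1, fibronectin, was at 375, 397 and 671 FPKM in U87MG against 37.8, 41.3 and 46 (3.45, SE 0.18). FBN1, fibrillin, and LTBP1, which holds latent TGF-beta in the matrix, differed by 4.99 (SE 0.18) and 5.11 (SE 0.11). NID1, a linker of basement membranes, was at 26.7, 37.5 and 26.8 FPKM in U251MG against 0.76, 0.74 and 0.96. Among 25 laminins and integrins, 11 and 6 had 2-fold differences towards U87MG and U251MG. ITGA2 (2.84) and ITGA11 (2.26), collagen receptor chains, were higher in U87MG, as was ITGA5, while the laminin receptor chains ITGA6 (-3.42) and ITGB4 (-3.83) were higher in U251MG.

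Neural adhesion and guidance genes leaned towards U251MG. Cadherins and neural adhesion genes had 10 2-fold differences towards U87MG and 14 towards U251MG among 31 tested (median -0.89). NTM, neurotrimin, was at 49.1, 26.9 and 48.4 FPKM in U251MG and 0 in U87MG, and NRCAM at 20.4, 13.4 and 19.7 against 0.13, 0.18 and 0.25. NFASC, a related adhesion molecule, went the other way at 46.1, 48.3 and 50.5 FPKM in U87MG against 0.17, 0.39 and 0.54. Among 46 axon guidance genes, 7 and 19 had 2-fold differences towards U87MG and U251MG (median -0.82, and -0.61 without U251MG replicate 2). EPHA3, an ephrin receptor, was at 37.1, 36.6 and 39.1 FPKM in U251MG against 0.17, 0.28 and 0.61 (-4.85, SE 0.13). SEMA7A was at 157, 173 and 168 FPKM in U87MG against 2.78, 1.77 and 1.99 (5.73, SE 0.12).

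Receptor tyrosine kinases had 2 2-fold differences towards U87MG and 11 towards U251MG among 20 tested (median -1.07). Besides PDGFRA and FGFR3, FGFR2 was at 15.6, 31.4 and 16.6 FPKM in U251MG and at most at 0.03 in U87MG, IGF1R at 29.2, 24.4 and 30.5 against 3.52, 3.78 and 4.46, and DDR1, a collagen receptor, at 114, 155 and 107 against 14.2, 17.9 and 20.5. PDGFRB was the platelet-derived growth factor receptor of U87MG, at 8.28, 10.8 and 13.8 FPKM against 0.98, 1.56 and 1.34. AXL was close in both lines, and its call (0.68, adjusted p 0.0123, limma) was lost in a fit of the 6 libraries alone (adjusted p 0.0586).

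Growth factor ligands differed in both directions. Of 36 ligands tested, 11 and 9 had 2-fold differences towards U87MG and U251MG (median 0.14, 0.09 without U251MG replicate 2 and 0.22 without U87MG replicate 1). Without U87MG replicate 3 these counts were 9 and 10. PDGFB was at 21.7, 19.6 and 21 FPKM in U251MG and listed at 0 in U87MG. HGF, the ligand of MET, was at 16, 19.4 and 17.6 FPKM in U87MG and at most at 0.21 in U251MG, EREG, a ligand of EGFR, at 53.9, 54.3 and 66.1 against at most 0.03, and VEGFC, a lymphatic growth factor, at 19.8, 21.6 and 22.4 against 0.47, 0.61 and 0.37. MDK, midkine, was at 241, 145 and 225 FPKM in U251MG against 10.6, 10.4 and 8.67. VEGFA overlapped between the lines, at 485, 211 and 433 FPKM against 360, 464 and 1075, and was not called (0.67, SE 0.37), although it was without U87MG replicate 1 (1.00, adjusted p 0.0289, limma).

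Target genes of YAP and TEAD, which read out cell stretch and density, had 9 2-fold differences towards U251MG and 2 towards U87MG among 19 tested (median -0.73, but -1.25 without U251MG replicate 2 and -1.37 without U87MG replicate 3). ANKRD1 was at 103, 87.4 and 112 FPKM in U251MG and 0.38, 0.33 and 0.32 in U87MG (-6.23, SE 0.12), CYR61 at 314, 176 and 312 against 22.4, 21.5 and 17.7, and CTGF at 101, 66 and 115 against 18.3, 16.9 and 11.9. The list did not move as a whole: NT5E, a surface nucleotidase, was at 314, 351 and 434 FPKM in U87MG against 38.2, 7.93 and 32.9 (4, and 3.32 without U251MG replicate 2), and DLC1, a tumour suppressor that acts on the cytoskeleton, differed by 5.02 (SE 0.12).

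Secreted regulators of BMP and WNT were exchanged between the lines. GREM1, a BMP antagonist, was at 113, 106 and 86.2 FPKM in U87MG and at most at 0.01 in U251MG, while NOG, another BMP antagonist, was at 21.3, 18.1 and 22.1 in U251MG and 0.17, 0.19 and 0.16 in U87MG. ID1, a target of BMP receptors, was at 342, 305 and 343 FPKM in U87MG against 11.4, 15.8 and 11.1 (4.60, SE 0.12). Of the 27 TGF-beta and BMP genes tested, 11 and 4 had 2-fold differences towards U87MG and U251MG (median 0.92). WNT5A and WNT7B were at 125, 124 and 137 and at 126, 125 and 85 FPKM in U87MG, against no more than 1.98 and 6.71 in U251MG. DKK1 and SFRP1, WNT antagonists, and LRP5, a WNT co-receptor, were higher in U251MG, with differences of -4.17, -4.37 and -4.53. Among 28 WNT genes, 6 and 10 had such differences (median -0.35). MAPK feedback genes had 5 and 3 of 19 (median 0.42, 0.27 without U251MG replicate 2 and 0.26 without U87MG replicate 3), with IER3, an early response gene, at 136, 151 and 175 FPKM in U87MG against 2.78, 2.06 and 2.13. SPRY1, a brake on receptor signals, was higher in U251MG (-2.19, SE 0.16).

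Genes of MHC class II were present in U87MG and nearly absent from U251MG. MHC class II molecules present peptides from outside the cell to helper T cells, CD74 chaperones them, HLA-DM loads them, and CIITA switches the genes on together with factors that bind upstream motifs. They are normally restricted to antigen-presenting cells and appear elsewhere after interferon-gamma. HLA-DRB1 was at 106, 112 and 118 FPKM in U87MG and listed at 0 in all 3 U251MG libraries, and HLA-DRA at 53.5, 54.1 and 58.5 against 0. HLA-DRB5 was at 77.1, 88.6 and 93.4 FPKM, but it is nearly identical to HLA-DRB1, and the division of reads between them is uncertain. HLA-DPA1 was at 58.5, 61.5 and 63.5 FPKM against 0, 0.08 and 0.21, HLA-DQB1 at 18.7, 17.9 and 21.2 against 0, and CD74 at 163, 169 and 195 against 0.13, 0 and 0.13. CIITA itself was at 11.4, 13.1 and 10.1 FPKM against 0.02, 0.31 and 0.11 (3.45, SE 0.12).

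Of all 23 MHC genes tested, 12 had a 2-fold difference towards U87MG and 0 towards U251MG (median 1.71), the latter 1 without U251MG replicate 2. These 12 are the 11 class II genes and HLA-B. Class I genes differed among themselves: HLA-B was at 15, 9.1 and 13.7 FPKM in U251MG against 105, 110 and 143, and HLA-C was not called (0.01, SE 0.12). B2M, the light chain shared by class I molecules, was at 2524 to 2610 FPKM against 2899 to 2964, and its call (0.19, adjusted p 0.0232, limma) was lost without U87MG replicate 1 (0.18, adjusted p 0.0591). CIITA, HLA-B, HLA-C and HLA-DMA were named after their values were seen.

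The promoters of CD74 and HLA-DMA (3.43, SE 0.17) are shown because the class II genes moved together and share a conserved upstream element whose most downstream part is a CCAAT box, read by NF-Y. These are the 250 bases before the start (RefSeq, GRCh38.p14), 5′ to 3′ in the direction of transcription, with CCAAT or its complement ATTGG in capitals.
CD74 (chr5:150412911-150413160, minus strand): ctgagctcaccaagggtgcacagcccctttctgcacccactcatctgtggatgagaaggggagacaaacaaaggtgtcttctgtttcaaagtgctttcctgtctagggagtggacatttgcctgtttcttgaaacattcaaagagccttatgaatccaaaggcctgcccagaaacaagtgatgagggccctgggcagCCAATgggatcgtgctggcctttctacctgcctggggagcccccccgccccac
HLA-DMA (chr6:32953098-32953347, minus strand): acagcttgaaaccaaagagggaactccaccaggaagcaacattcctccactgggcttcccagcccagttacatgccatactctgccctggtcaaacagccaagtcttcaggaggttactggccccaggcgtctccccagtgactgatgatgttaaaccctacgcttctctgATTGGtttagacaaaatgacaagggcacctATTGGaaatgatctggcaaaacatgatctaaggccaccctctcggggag
CD74 held 1 match, ending 49 bases before the start, and HLA-DMA 2, both as ATTGG, ending 75 and 45 bases before it. The box was found in 8 of the 9 class II genes with a promoter in the table, in 35.5% of tested genes' promoters and in 33% of all promoters of the table. It is a common element, and the match says nothing of factor binding in these cells.

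Cytokines and chemokines differed in both directions. Of 30 tested, 18 had a 2-fold difference towards U87MG and 9 towards U251MG (median 1.65). IL1B was at 100, 128 and 121 FPKM in U87MG and at most at 0.09 in U251MG (6.81, SE 0.16), and IL8, which attracts neutrophils, at 114, 116 and 152 against 8.03, 2.6 and 7.32. IL18, of the same family as IL1B, was at 130, 88.6 and 141 FPKM in U251MG against 0.4, 0.52 and 0.31, and CXCL16 at 20.3, 18.5 and 19 against at most 0.15. The IL1B receptor chain IL1R1 was at 9.35, 10.1 and 10.7 FPKM in U87MG and 0.11, 0.11 and 0.12 in U251MG. TNFRSF1B, a receptor of tumour necrosis factor, differed by 5.07 (SE 0.13), IL13RA2, a decoy receptor studied as a glioma target, by 2.99 (SE 0.12), and FAS, a death receptor, by 2.02 (SE 0.10). Over 37 such receptors, 18 and 7 had 2-fold differences towards U87MG and U251MG (median 0.86).

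Complement genes had 5 2-fold differences towards U87MG and 0 towards U251MG among 12 tested (median 0.60). C1S, a protease of the classical pathway, was at 41, 45.8 and 51.5 FPKM against 0.37, 0.41 and 0.26, C1R at 91.9, 104 and 105 against 4.81, 7.21 and 5.12, and C3, the central component, at 54.1, 72 and 106 against 2.22, 4.05 and 1.8. Interferon-stimulated genes had 4 in each direction among 28 (median 0.26). OASL was at 11.9, 12.3 and 13.2 FPKM in U87MG against 0.06, 0.13 and 0.1, whereas MX1 (-1.67), BST2 (-2.57) and ISG20 (-2.05) were higher in U251MG. IRF1, a transcription factor of the interferon response, was at 182, 48.8 and 169 FPKM against 29.4, 27.1 and 31.6 (-1.93, and -2.54 without U251MG replicate 2).

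Genes of glycolysis and the hypoxia response were higher in U87MG. Glycolysis splits glucose into pyruvate, LDHA makes lactate of it, and the factor HIF1 switches on these genes and others such as the carbonic anhydrases when oxygen is low, a programme typical of mesenchymal glioblastoma. All 35 were tested. A 2-fold difference towards U87MG was found for 22 and towards U251MG for 0, with a median of 1.42. Without U87MG replicate 3 these counts were 20 and 2 and the median 1.15, and U87MG replicate 3 had the highest summed level of the list, 29200 FPKM against 18700 and 20600. What sets that library apart was not tested.

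Within the pathway GAPDH was at 5403, 5547 and 6757 FPKM in U87MG against 1524, 2151 and 1495 (1.79, SE 0.13). ALDOC, the aldolase of brain, was at 24.4, 31.6 and 77 FPKM against 0.36, 0.46 and 0.22 (4.90, SE 0.32), and ENO2 differed by 2.70 (SE 0.20). The carbonic anhydrase CA9 was at 28.1, 55.3 and 310 FPKM against 0.4, 0.25 and 0.22, a difference of 5.95 (SE 0.63) that was 4.97 without U87MG replicate 3 and 6.68 without U87MG replicate 1. CA12, its relative, was at 71.2, 88.3 and 177 FPKM against at most 0.09. NDRG1, a stress protein, was at 107, 191 and 734 FPKM against 5.56, 4.36 and 5 (5.38, and 4.60 without replicate 3 or 5.98 without replicate 1 of U87MG), and ANGPTL4, an inhibitor of LPL, at 18.7, 24.6 and 78.2 against at most 0.09 (5.04, and 4.44 without replicate 3). In each of these genes replicate 3 was the highest of the U87MG libraries, and the other 2 were still above every U251MG library.

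The promoters of LDHA and CA9 are shown because both genes are HIF1 targets and were among the largest differences of the list, with the limit on LDHA in U251MG given above. They are the 250 bases before the start (RefSeq, GRCh38.p14), 5′ to 3′ in the direction of transcription, with the core of the hypoxia response element, ACGTG, or its complement CACGT in capitals.
LDHA (chr11:18394313-18394562, plus strand): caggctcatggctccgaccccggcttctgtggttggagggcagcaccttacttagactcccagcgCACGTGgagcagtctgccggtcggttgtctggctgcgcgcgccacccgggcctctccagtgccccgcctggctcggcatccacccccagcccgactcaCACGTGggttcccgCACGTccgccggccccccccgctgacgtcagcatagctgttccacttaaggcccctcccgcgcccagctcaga
CA9 (chr9:35673678-35673927, plus strand): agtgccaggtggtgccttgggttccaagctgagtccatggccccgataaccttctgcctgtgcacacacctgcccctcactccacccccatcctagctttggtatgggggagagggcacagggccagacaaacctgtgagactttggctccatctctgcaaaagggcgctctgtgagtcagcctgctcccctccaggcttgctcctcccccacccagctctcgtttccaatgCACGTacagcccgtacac
LDHA held 5 matches at 3 places, since the palindrome CACGTG is read on both strands, and CA9 held 1, ending 14 bases before the start. Of the 31 genes of the list with a promoter in the table, 13 held the core, or 41.9%, against 23.7% of tested genes' promoters and 18.7% of all promoters of the table. The core also occurs within the E-box CACGTG, which other factors read, and the list was chosen by function and not tested for enrichment.

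Targets of ATF4 were higher in U251MG. ATF4 is the transcription factor of the amino acid and endoplasmic reticulum stress response and drives serine synthesis and amino acid uptake. All 25 were tested, and 17 had a 2-fold difference towards U251MG and 3 towards U87MG (median -1.57). PHGDH, the entry enzyme of serine synthesis, was at 2933, 1326 and 2828 FPKM in U251MG and 68.7, 91.4 and 138 in U87MG (-4.53, SE 0.29), and PSPH, its last enzyme, at 247, 128 and 244 against 22.4, 21.1 and 28.4. TRIB3, a pseudokinase of the stress response, was at 234, 44.9 and 227 FPKM against 3.62, 6.42 and 15.7 (-4.02, and -4.80 without U251MG replicate 2). CHAC1, which degrades glutathione, was at 127, 64.5 and 120 FPKM against 4.7, 7.57 and 26.1 (-3.19, and -3.84 without U87MG replicate 3), and ATF3 at 131, 36.6 and 135 against 9.72, 10.9 and 11.8 (-2.90, and -3.51 without U251MG replicate 2). U251MG replicate 2 was the lowest library of its line in all 5 genes, and its summed level of the list was 3720 FPKM against 8790 and 8580. Even so it stayed above every U87MG library, where the sum was 1620 to 2740. The median was -2.01 without it.

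Metallothioneins were mostly higher in U87MG, while NRF2 targets had 2-fold differences in both directions. Of 8 metallothioneins, which bind zinc and copper, 7 had a 2-fold difference towards U87MG and 0 towards U251MG (median 2.79). MT3 (-0.81, SE 0.33), named after its values were seen, added 1 towards U251MG without U251MG replicate 1 or without U87MG replicate 3. MT2A was at 3863, 4475 and 4216 FPKM in U87MG against 404, 521 and 403 (3.25, SE 0.11), and MT1E at 393, 408 and 339 against 23.5, 39 and 27.3. MT1L was listed at 311, 365 and 384 FPKM against 0, but its sequence is close to that of other members and the assignment of reads is uncertain. NRF2 targets had 8 and 4 of 28 (median 0.39). Among them AKR1B1, aldose reductase, was at 1554, 1919 and 1710 FPKM in U87MG against 241, 237 and 227, HMOX1, haem oxygenase, at 128, 126 and 160 against 47.9, 14.1 and 41.2, and FTH1, ferritin heavy chain, at 9626, 9390 and 7769 against 3714, 2406 and 3407. AKR1C1 (4.75, SE 0.14) and AKR1C2 are near-identical copies and are uncertain as single genes.

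Ferroptosis, a form of cell death by lipid peroxidation, is held back by glutathione made from cystine. Ferroptosis genes had 5 2-fold differences towards U87MG and 8 towards U251MG among 32 tested (median -0.17, and -0.11 without U251MG replicate 2 or U87MG replicate 3), with 3 towards U87MG without U251MG replicate 1. SLC7A11, the cystine importer, was at 74.9, 33 and 83.7 FPKM in U251MG against 13.4, 9.93 and 10.7 (-2.30, SE 0.28), and CBS, which feeds cysteine synthesis, at 91.1, 27.8 and 88.9 against 0.86, 1.58 and 4.1. FADS2, a fatty acid desaturase, differed by -3.17 (SE 0.28), and PTGS2, often used as a marker of ferroptosis, by 2.82 (SE 0.14). Glutathione S-transferases and aldehyde dehydrogenases had 10 and 6 of 27 (median -0.09, 0.02 under quantile normalization and 0.01 without U251MG replicate 2 or U87MG replicate 2; -0.03 or -0.04 without U251MG replicate 1, U87MG replicate 1 or U87MG replicate 3). ALDH1A3, a marker of mesenchymal glioma stem cells, was at 231, 289 and 197 FPKM in U87MG against 1.35, 0.93 and 1.7 (6.68, SE 0.17). GSTP1, the most abundant transferase, was at 620, 754 and 653 FPKM in U251MG against 280, 272 and 263. ABC transporters had 4 and 3 of 20 (median -0.41, and -0.26 without U251MG replicate 2), with ABCG2, a drug exporter, at 0.09, 0.43 and 0.33 FPKM in U251MG and 3.37, 2.21 and 1.87 in U87MG. Genes of cholesterol synthesis had 3 and 4 of 23 (median 0.05), and without U251MG replicate 2 they had 4 and 2 and a median of 0.26, against -0.08 without U251MG replicate 1, -0.02 without U251MG replicate 3 and 0 without U87MG replicate 3. INSIG1, a sterol sensor, was at 4.79, 28.6 and 5.46 FPKM against 42.6, 41.3 and 47.8 (2.11, and 2.87 without that library).

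Genes of growth arrest and cell death differed in both directions. CDKN1A, the p21 inhibitor of the cell cycle, was at 142, 152 and 156 FPKM in U87MG against 57, 34.7 and 54.8 (1.63, SE 0.16). PHLDA3 and EDA2R differed by 2.37 (SE 0.12) and 2.46 (SE 0.11), DDB2, which detects DNA lesions, by 1.89 (SE 0.17), and SPATA18 by 2.58 (SE 0.15). Higher in U251MG were the death gene BBC3 (-1.27, SE 0.15) and the growth inhibitor BTG2 (-2.83, SE 0.16). GADD45A was at 213, 58.6 and 213 FPKM against 56, 60 and 63.5, and its value (-1.20, adjusted p 0.0113, limma) was -1.82 without U251MG replicate 2, while the call was lost without U251MG replicate 1 (-0.90, adjusted p 0.0554) and without replicate 3 (-0.89, adjusted p 0.0568). It was also lost in the fit of the 6 libraries alone (-1.20, adjusted p 0.0517, limma). BCL2 family genes had 0 and 6 of 15 (median -0.25, and -0.15, -0.49 and -0.10 without replicates 1, 2 and 3 of U251MG), led by BCL2L11 at 14.3, 19.6 and 13 FPKM in U251MG against 1.99, 3.49 and 2.48. PMAIP1, another death-promoting member, differed by -1.81 (SE 0.24). BCL2L1, a survival member, was not called (-0.40, SE 0.19), but it was without U251MG replicate 2 (-0.69) and under quantile normalization (-0.45). Cyclins, their kinases and inhibitors had 2 and 7 of 25 (median 0.20, and 0.08 without U251MG replicate 2), with 1 towards U87MG without U251MG replicate 1 or 3. The latter 7 included E2F3 (-1.73, SE 0.10) and E2F5 (-1.99, SE 0.15), regulators of entry into DNA synthesis.

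Genes of DNA repair and mitosis had few 2-fold differences. Genes that repair temozolomide lesions had 1 and 2 2-fold differences towards U87MG and U251MG among 20 tested (median -0.35). MLH3, a mismatch repair gene, was at 7.17, 5.62 and 6.56 FPKM in U87MG against 0.55, 0.27 and 0.12 (2.51, SE 0.14), PMS2, another, differed by -1.22 (SE 0.08), and POLB, the base excision polymerase, by -1.08 (SE 0.10). MGMT, which removes the methyl group that temozolomide puts on guanine, was listed at 0 in all 6 libraries and was not tested. Double-strand break repair genes had 2 and 2 of 39 (10.3% of the list, median 0.06, and -0.01 without U251MG replicate 1, 0.02 without U87MG replicate 1 and 0.15 without U251MG replicate 2 or U87MG replicate 3). XRCC6, the most abundant, was not called (0.10), though it was under median-of-ratios scaling (0.19, adjusted p 0.0346, limma). CHEK1, a damage kinase, was at 45.5, 51.2 and 45.7 FPKM in U251MG against 25, 19.6 and 16.7 (-1.19, SE 0.12), and CHEK2, its partner, differed by 1.32 (SE 0.19) the other way. G2 and mitosis genes had 1 and 1 of 30 (6.67%, median 0.32), the former 2 without U251MG replicate 2 or U87MG replicate 3, with AURKA, a spindle kinase, at 1.36 (SE 0.13) and CDC25B, a phosphatase of mitotic entry, at -1.82 (SE 0.09). DNA replication genes had 7 and 1 of 38 (median 0.50), and 4 and 0 with a median of 0.30 without U251MG replicate 1. The 1 was also 0 without U87MG replicate 3. RRM2, a subunit of ribonucleotide reductase, was at 233, 258 and 244 FPKM in U87MG against 38, 87 and 37.9 (2.27, SE 0.24).

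Genes of the respiratory chain had few 2-fold differences. Oxidative phosphorylation genes had 3 and 0 of 37 (8.11%, median 0.04, and -0.04 under quantile normalization, 0.08 without U251MG replicate 2 or U87MG replicate 3 and 0.02 without U251MG replicate 3 or U87MG replicate 2), with CYC1, cytochrome c1, at 199, 211 and 180 FPKM in U87MG against 74.9, 70.6 and 72.2. Without U251MG replicate 2 the 3 became 5. Transcripts of the mitochondrial genome had no 2-fold difference among 13 (0 of 13, with 8 called by limma, 5 of them higher in U87MG). MT-ND4L reached 12781 to 14310 FPKM in U251MG and 14484 to 15858 in U87MG and was not called (0.19, SE 0.09). It was called in 5 alternatives: quantile normalization (0.62), median-of-ratios scaling (0.28, adjusted p 0.00776, limma), without U251MG replicate 2 (0.24, adjusted p 0.0337), the 6 libraries alone (adjusted p 0.0467) and the replicate block (adjusted p 0.0327). Cytosolic ribosomal protein genes had 1 and 7 of 30 (median -0.29), and RPS18 and RPS6 were both lower in U87MG, with differences of -1.59 and -1.57. Proteasome genes had 3 and 0 of 24 (median 0.45). Genes of early stress had 6 and 1 of 13 (median 1.00), and 7 and 2 without U87MG replicate 3, with HSPA8, a chaperone, at 1640, 1468 and 944 FPKM in U87MG against 242, 542 and 238 (2.06, SE 0.29).

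**Figure D4:**
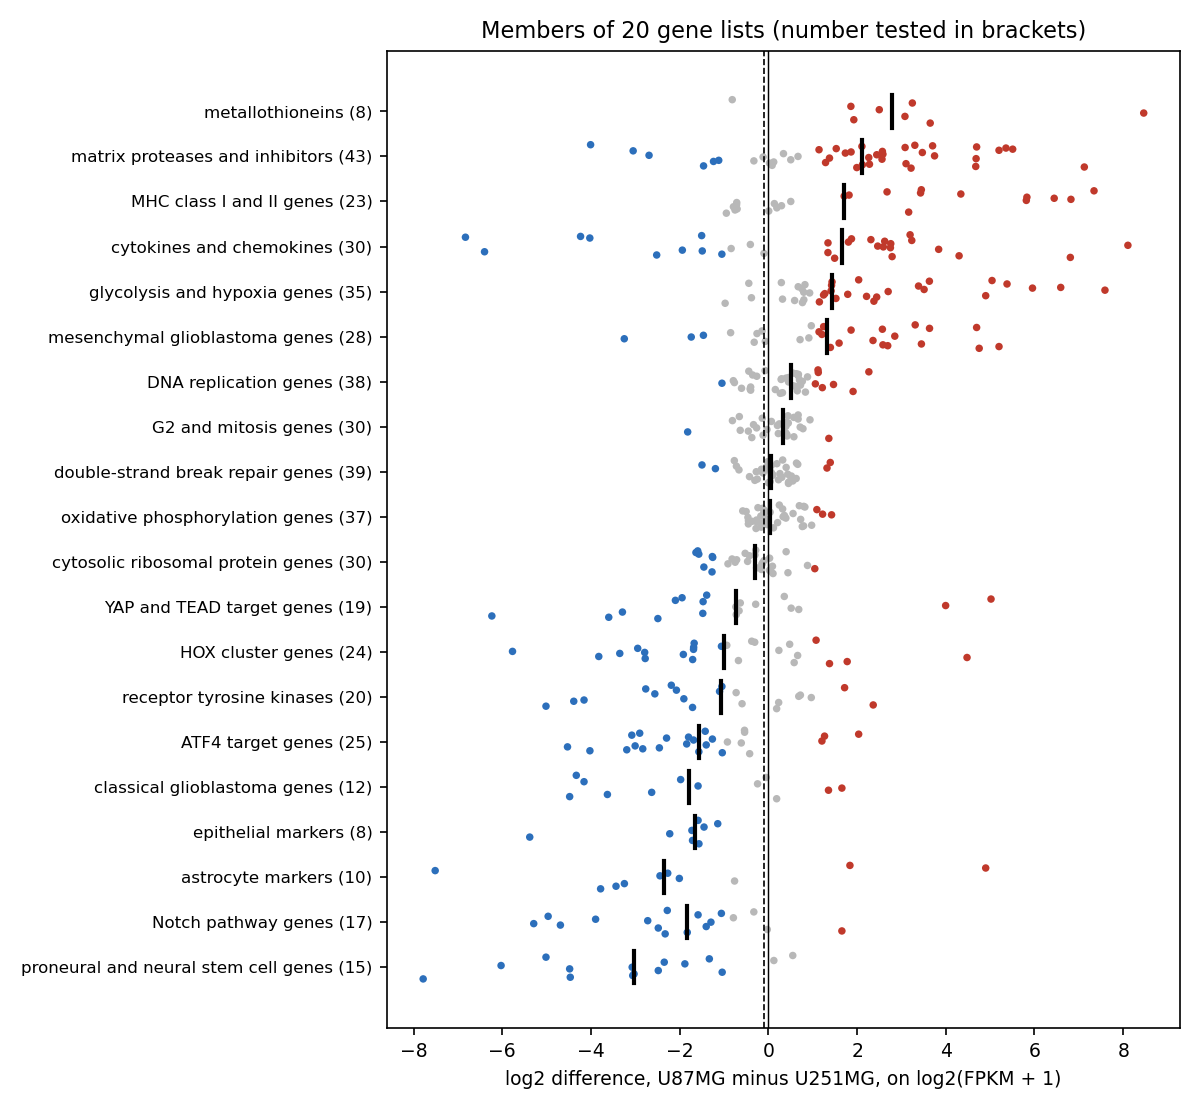
Difference of each tested member of 20 gene lists, U87MG minus U251MG on the log2(FPKM + 1) scale. Red and blue points are 2-fold differences towards U87MG and U251MG, grey points all others, thick bars the median of each list, the solid line 0 and the dashed line the median of all genes (-0.10). The medians run from -3.03 in proneural and neural stem cell genes to 2.79 in metallothioneins.

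By chromosome, medians departed from that of all genes in a few cases. The chromosome was taken from RefSeq for the 90.5% of genes tested whose symbol matched. Chromosome 6 had a median of -0.72 over 669 genes, with 252 2-fold differences towards U251MG and 61 towards U87MG, and the same contrast between the resistant lines gave -0.85. Chromosome 18 had a median of 0.80 over 180 genes, with 68 towards U87MG and 14 towards U251MG, and 0.14 between the resistant lines. The X chromosome had -0.46 over 464 genes and -0.15 between the resistant lines. Medians of the other chromosomes lay between -0.28 and 0.27, although 2-fold differences were uneven on some of them. Towards U87MG and U251MG there were 106 and 220 on chromosome 19, 99 and 170 on chromosome 11, and 157 and 74 on chromosome 2. Between the resistant lines the medians of chromosomes 11 and 7 were -0.79 and -0.57, against -0.24 and -0.15 between the parents. Copy number was not measured.

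Most parental differences were found again between U87TR and U251TR, whose libraries do not enter the parental means. Each gene's spread was estimated over all 12 libraries, so both contrasts share it. Between the resistant lines 10308 of the same 14211 genes (72.5%) were called. Of the 10547 parental calls, 7438 (70.5%) were called in the same direction, 839 (7.95%) in the opposite one, and 2270 were not called. Of the 4765 2-fold differences, 4009 (84.1%) had the same call and 178 (3.74%) the opposite one. With the parental and the resistant libraries fitted apart, 9831 genes were called between the parents. Of these, 7290 (74.2%) were called in the same direction between the resistant lines and 832 in the opposite one. U87TR has library codes numbered separately from those of U87MG, U251MG and U251TR, and in the contrast of the resistant lines the line and this numbering cannot be told apart.

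Named genes differed in how far they held. Of the 30 largest parental differences, all 30 were called in the same direction between the resistant lines and 27 were closer to 0 there, in genes picked for a large parental value. The change between the contrasts was not called for COL6A3 (8.63), RAC2 (7.85), CYBA (7.69), FLNC (7.06) and MIF (7.99). TGM2 was at 7.31 FPKM on average in U87TR against 158 in U87MG, which left 2.61, and IGFBP5 at 5.41 in U251TR against 164 in U251MG, which left -1.33. CHI3L1 turned: it averaged 2640 FPKM in U251TR and 487 in U87TR, a difference of -2.42. TNC turned too, at 193 FPKM in U251TR and 441 in U87TR (1.19). Between the resistant lines the class II genes CD74 and HLA-DRB1 were at 6.74 and 7.12, the Notch targets HES1 and HES4 at -4.25 and -5.50, PHGDH at -3.59 and LDHA at 6.57. The change between the contrasts was called for CD74 (-0.60), HLA-DRB1 (0.30), HES1 (0.43) and LDHA (-1.02), and was not called for HES4 and PHGDH. NES (-0.72), ANKRD1 (-0.51) and IL1B (0.95) kept their sign with a difference under 2-fold, and PDGFRA was at -2.27.

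**Figure D5:**
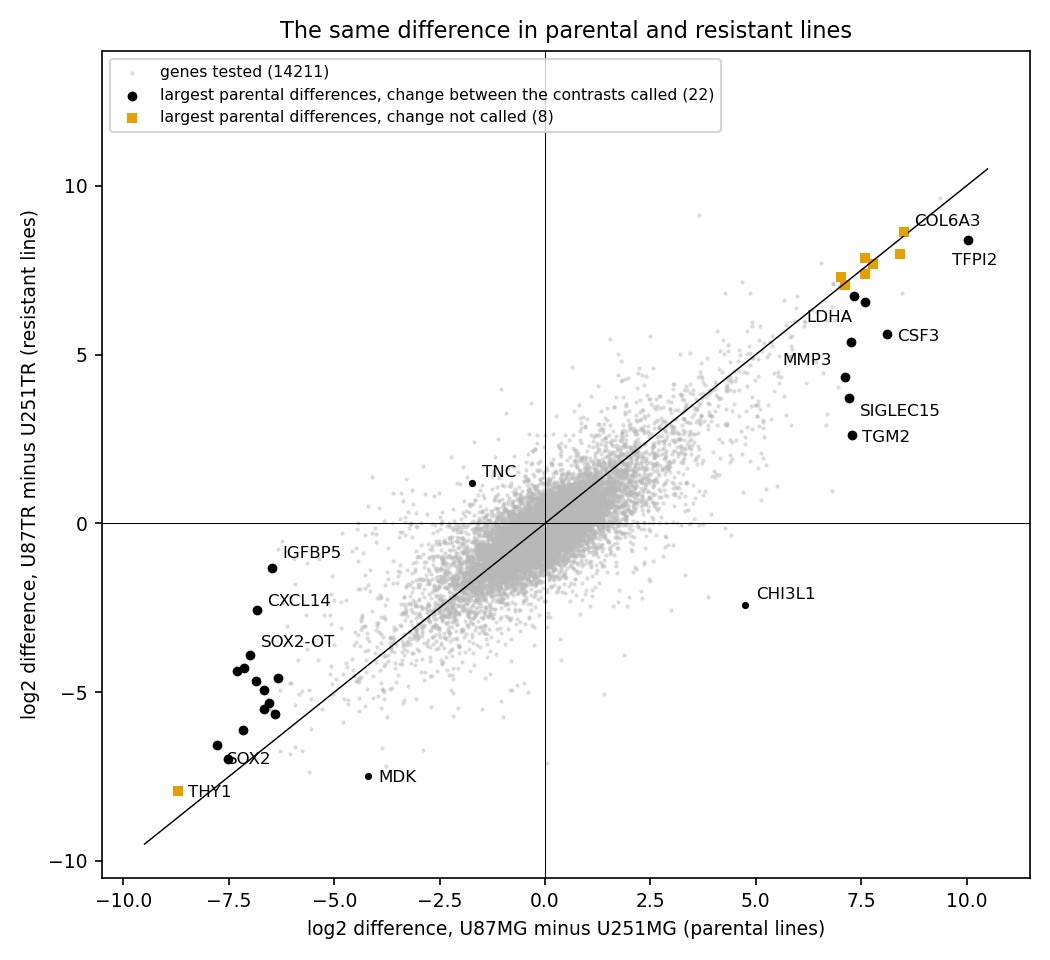
Difference between the lineages in the parental lines (x axis) and in the resistant lines (y axis) for the 14211 genes tested, both on the log2(FPKM + 1) scale, with the line of equality. Black circles are the 22 of the 30 largest parental differences whose change between the contrasts was called, orange squares the 8 whose change was not, and small black points other labelled genes. The share of called changes over all genes is not given. CHI3L1 and TNC lie in quadrants of opposite sign.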

How the data were processed

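RNA-seq was made from 12 libraries, 3 for each of U87MG, U251MG, U87TR and U251TR. The deposited table holds 1 FPKM value per gene symbol and library, made by the authors with STAR 2.5.2b and RSEM 1.2.31, per the submitters' processing notes. That the unit is FPKM was inferred from the values. The notes name build hg19 and the series' design text hg38, so coordinates printed here are those of RefSeq sequences on GRCh38.p14. Use of strand and filters are not given in the sources used here.

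Of 31681 gene rows, 27 with date-like symbols were left out. Genes with at least 1 FPKM in at least 3 of the 6 parental libraries were fitted as log2(FPKM + 1) with limma 3.58.1 (R 4.3.3), with a mean per line over all 12 libraries, trended and robust moderation, two-sided tests and Benjamini-Hochberg adjustment over all genes tested. The fit was run on simulated data in which few genes differed between the parents and noise was independent between libraries. That run cannot show how the fit behaves where most genes differ, as here. Low genes' fold changes are understated by the pseudocount of 1.

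Genes, lists and tests were chosen with earlier results of these data known. Named genes are the 15 largest called differences in each direction (at least 10 FPKM in the higher line, no overlap, plain symbols with no pseudogene, small RNA, antisense or clone name), up to 10 genes per direction listed as present in one line and under 0.1 FPKM in the other, the driver genes, and per list up to 6 members with the largest called difference plus the most abundant. Any other gene given with a value was named after its values were seen. Alternatives covered the pseudocount, the filter, the libraries fitted, a replicate block, 3 scalings, the moderation and leaving out each parental library. Results on a few genes and 1 gene list are not reported here.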

Additional observations from a re-analysis of the deposited data

Results flagged for a closer look

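For 22 of the 30 genes with the largest parental difference, the difference between the lineages changed from the parental to the resistant lines by a limma test of that change. These genes were picked for a large parental difference, and 27 of the 30 were closer to 0 in the resistant lines. The share of all genes tested with a called change is not given, so 22 of 30 cannot be set against it. Each value below is the resistant minus the parental difference on the log2(FPKM + 1) scale. Among genes higher in U87MG, TGM2 changed by -4.67, SIGLEC15 by -3.50, MMP3 by -2.80 and CSF3 by -2.51. SLC43A3 changed by -1.87, TFPI2 by -1.66, LDHA by -1.02 and CD74 by -0.60. Among genes higher in U251MG, IGFBP5 changed by 5.16, CXCL14 by 4.27, SOX2-OT by 3.10, GPM6A by 2.95 and LPL by 2.87. GPM6B changed by 2.20, PLEKHG1 by 1.77, GPC4 by 1.74, AUTS2 by 1.23 and SOX2 by 1.21. PDLIM4 changed by 1.16, SERPINF1 by 1.05, IL18 by 0.77 and FABP7 by 0.54. All of these kept their direction in the resistant lines.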

How the results depend on the processing

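The number of genes called was 8087 with a filter at 5 FPKM and 13226 with no filter, against 10547, and 9976 to 10905 when each parental library was left out in turn. The number of 2-fold differences was 4765, and it fell to 2505 with a pseudocount of 5, which shrinks the fold of low genes by construction. Under the other alternatives it was 3356 to 5517, and 4692 to 4977 with a library left out. The number of calls found again in the same direction between the resistant lines was 5712 to 8514, and 7165 to 7769 with a library left out. The share of calls higher in U87MG was 44.8% and ranged from 43.9% to 49.4%. List medians moved to different degrees over the 16 alternatives. They ranged from -4.95 to -1.31 in proneural and neural stem cell genes and from 0.51 to 3.26 in MHC genes. In mesenchymal glioblastoma genes the range was 1.22 to 1.42. Over all genes tested, 9842 to 10190 of the 10547 calls were called again with a library left out, and 10063 to 10340 under the 3 scalings. Apart from driver genes and the most abundant members, named genes were chosen for large called differences or near absence from one line. A kept call was therefore likely from the choice. Of 355 named genes, 339 kept direction and side of the threshold in all 16 alternatives, 6 lost a call in at least 1 and 10 gained one. The sign turned for XRCC6, which was not called at 0.10 and was at -0.03 under quantile normalization, where it was not called either (the cause was not tested). XRCC6 was called under median-of-ratios scaling (0.19, adjusted p 0.0346, limma). Besides the genes given above, KDR lost its call in the fit of 6 libraries (adjusted p 0.0509, limma) and MT-CO1 under quantile normalization (adjusted p 0.19, limma).

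With the replicate number as a block, which added calls of MT-ND4L (0.19) and PIK3R1 (-0.42) among the named genes, 10520 genes were called, 4766 had a 2-fold difference and 7406 were found again between the resistant lines. No pairing by number was seen: deviations of same-numbered libraries correlated across genes at -0.0277, 0.0102 and 0.00549. Those of differently numbered libraries correlated at -0.0519 to 0.0354. With 3 libraries per line, these values cannot show whether same-numbered libraries were handled together. FPKM values give no read counts, so depth cannot be used to say which low values are beyond detection.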
